A study of Mus musculus with 14 samples.

Results

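The 36 genes described here drive or accompany cell division. They were taken as a list of gene names grouped by what the genes do, and the list was drawn up with earlier results of these data known. All 36 were found among the 36118 genes of the deposited table, and all 36 were among the 16637 genes with enough counts to be tested. They cover the proliferation marker Mki67, the entry into S phase, the replicative helicase, the supply and use of nucleotides, the mitotic cyclins and kinases, the spindle checkpoint and the mitotic spindle.

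RNA came from the hippocampus of 14 mouse pups on postnatal day 15, with 1 library per mouse. Wild-type (WT) pups and pups with a global knockout (KO) of gasdermin D (GSDMD), a pore-forming protein of inflammatory cell death, were kept in room air (RA) or in 85% O2 from day 1 to day 14. The 4 groups were WT-RA (n = 4), WT-O2 (n = 4), KO-RA (n = 3) and KO-O2 (n = 3). The study used homozygous KO mice and WT littermates from matings of heterozygotes on a C57BL/6N background, labelled C57/BL6. No litter is named for any of the 14 mice. The knockout was made in all cells and carries a small deletion in an exon of Gsdmd, so that no cell type can be assigned to its effect. WT-O2 replicate 4 is titled as a hyperoxia sample, and the title was followed although room air stands in its treatment field. WT and KO mice carry separate ranges of mouse numbers, so genotype and number range cannot be told apart. The same holds for exposure within WT mice, numbered GSD398 to GSD401 in WT-RA and GSD404 to GSD408 in WT-O2. In KO mice the numbers of the exposures interleave.

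Libraries summed to between 27272270 and 28257496 estimated counts. Gsdmd itself had 41 to 51 estimated counts in WT-RA, 51 to 63 in WT-O2, 22 to 42 in KO-RA and 36 to 40 in KO-O2. Such sums over a gene cannot tell deleted from intact transcripts. Levels below are CPM, counts scaled to the library total, which are not divided by gene length and are therefore compared between libraries and not between genes. In bulk tissue, fewer dividing cells and less RNA per dividing cell cannot be told apart.

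A cell that commits to division switches on E2F transcription factors, which drive the genes for DNA replication in S phase. Later, in G2 and mitosis, a second set of genes is switched on through DNA elements called CHR and CCAAT, bound by complexes that include the MuvB core and NF-Y. In the hippocampus of a mouse pup, dividing cells include the granule neuron precursors of the dentate gyrus, glial precursors and vascular cells, while most neurons have left the cell cycle.

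The promoters of the genes were searched for the letters of these elements. RefSeq promoter sequences (build GRCm38.p6, from 250 bases before to 50 after the start) were matched by symbol for 30 of the 36 genes, in 32 sequences. Ccne2, Mcm4, Ccna2, Aurkb, Kif20a and Tpx2 had no match. Below are the 120 bases before the start for the only members called in any comparison, Mcm6 and E2f1, for the marker Mki67, and for the mitotic genes Cdk1 and Cdc20. Capitals mark the letters of an E2F element (TTCCCGC or TTCGCGC or TTGCCGC or TTGGCGC), of a CHR element (TTTGAA) or of a CCAAT box (CCAAT), searched on both strands. The sequences read 5′ to 3′ on the strand of the gene, which is the minus strand in each case. They lie at chr1:128359706-128359825 (Mcm6), chr2:154569427-154569546 (E2f1), chr7:135716380-135716499 (Mki67), chr10:69352913-69353032 (Cdk1) and chr4:118437344-118437463 (Cdc20), upstream of each gene's start.
Mcm6: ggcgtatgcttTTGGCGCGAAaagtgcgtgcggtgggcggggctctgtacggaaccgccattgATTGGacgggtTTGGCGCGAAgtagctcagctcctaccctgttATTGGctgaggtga
E2f1: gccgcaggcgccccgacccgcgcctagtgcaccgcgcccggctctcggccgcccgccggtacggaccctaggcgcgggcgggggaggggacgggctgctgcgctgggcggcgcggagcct
Mki67: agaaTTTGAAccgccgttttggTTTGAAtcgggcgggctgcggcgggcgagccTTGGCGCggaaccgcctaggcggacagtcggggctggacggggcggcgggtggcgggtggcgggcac
Cdk1: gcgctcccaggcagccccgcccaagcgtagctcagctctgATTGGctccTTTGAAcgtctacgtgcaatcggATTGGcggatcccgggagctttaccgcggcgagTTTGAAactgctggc
Cdc20: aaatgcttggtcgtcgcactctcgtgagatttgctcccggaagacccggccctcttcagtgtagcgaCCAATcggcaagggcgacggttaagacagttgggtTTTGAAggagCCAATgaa

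Mcm6 carries 2 stretches in which E2F letters on the 2 strands overlap, the first starting 109 bases and the second 46 bases before the start. It also has CCAAT boxes 57 and 14 bases before the start, and no CHR letters. Mki67 has E2F letters 67 bases before the start and CHR letters 116 and 98 bases before it. Cdk1 and Cdc20 have CHR letters, at 15 and 18 bases before the start, with CCAAT boxes nearby. Cdk1 has further CHR letters 71 bases before the start. Upstream of the printed bases it also has E2F letters, at 178 and 130 bases before the start. The E2f1 stretch holds none of these letters. Over the whole 300-base sequences, E2F letters were found in 7 of 11 promoters of the G1/S, helicase and DNA synthesis genes, in 3 of 21 promoters of the other members and in 9.57% of all 32851 promoters in the table. The CHR letters were found in 1 of the 11, in 15 of the 21 and in 17.9% of all promoters. A CCAAT box was present in 9 of the 11, in 18 of the 21 and in 37.4% of all promoters. These matches describe letters and do not show that a factor binds there.

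Ki67, the protein made from Mki67, is the stain by which the study counted dividing cells in brain sections. Mki67 was measured at 14.6, 16.4, 22.5 and 16.6 CPM in WT-RA replicates 1 to 4. It was at 22.8, 18.6, 17.7 and 19.8 CPM in WT-O2 replicates 1 to 4. The KO-RA libraries had 17.5, 21.3 and 19.7 CPM and the KO-O2 libraries 19.0, 18.2 and 17.9 CPM. All 4 groups overlapped, and the highest and lowest WT-RA library enclosed both KO groups. With means of 17.5 ± 3.44 CPM (SD, n = 4) in WT-RA and 19.7 ± 2.24 CPM (SD, n = 4) in WT-O2, the log2 fold change of WT-O2 vs WT-RA was 0.17 (95% interval -0.09 to 0.43, edgeR q = 0.622). In KO mice, KO-O2 vs KO-RA gave -0.09 (interval -0.39 to 0.20, edgeR q = 0.997). The q values are p-values after Benjamini-Hochberg adjustment over all genes tested. Calls required an unadjusted p below 0.05, a q below 0.1 and a log2 fold change of at least 0.32 in either direction, the thresholds of the study. Top2a, the topoisomerase that untangles chromosomes before they separate, ranged from 9.43 to 12.5 CPM in WT-RA, from 9.91 to 11.8 in WT-O2, from 10.1 to 11.9 in KO-RA and from 10.8 to 12 in KO-O2. Its log2 fold change was 0.01 in WT mice (interval -0.21 to 0.24) and 0.01 in KO mice (interval -0.25 to 0.26).

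**Figure D1:**
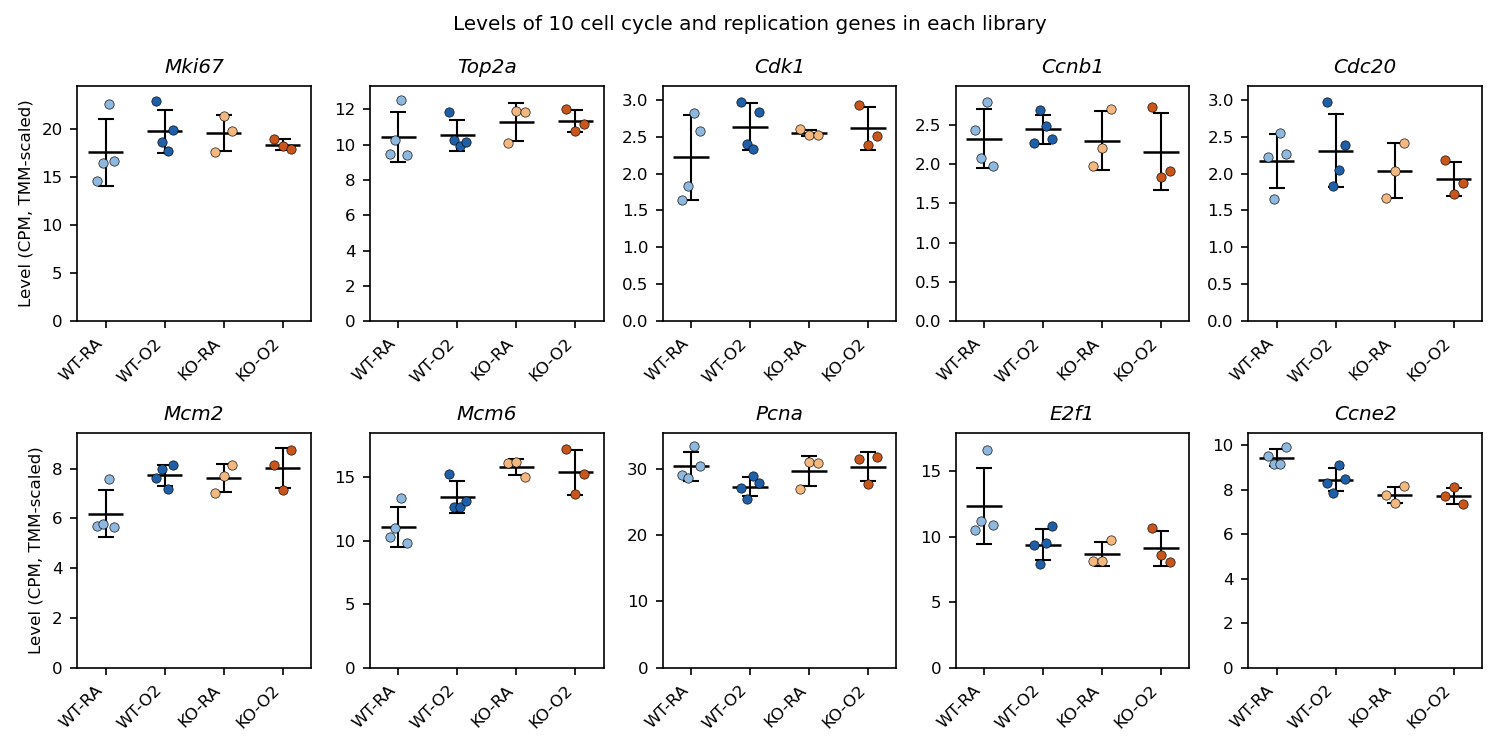
Each point is the level of a gene in 1 library (CPM after TMM scaling, linear axis from 0), with the group mean as a bar and the SD as whiskers, for 10 cell cycle genes in WT-RA and WT-O2 (4 mice each) and KO-RA and KO-O2 (3 mice each). Mki67, Top2a, Cdk1, Ccnb1, Cdc20 and Pcna overlap between all groups, the KO-RA points of Mcm6 lie above all WT-RA points, those of E2f1 and Ccne2 lie below them, and WT-RA replicate 3 is the highest WT-RA point for E2f1 and Mcm2.

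The first question was whether 85% O2 changed the cell cycle genes in WT hippocampus. None of the 36 members was called in WT-O2 vs WT-RA, where 0.643% of all genes tested were called. At an unadjusted p under 0.05 there were 5 members, against 12.2% of all genes. Those were Mcm2 (0.32), Mcm6 (0.27), Bub1b (0.53) and Rrm1 (0.18), with positive log2 fold changes, and E2f1, with -0.39. The smallest q of any member was 0.247. DESeq2 on all libraries also called 0 members, with 5 at an unadjusted p under 0.05. With WT-O2 replicate 4 counted as room air, edgeR again called 0 members, with 1 at an unadjusted p under 0.05. The genes called among all 16637 then fell from 107 to 6. The median log2 fold change was 0.05 over the members and -0.01 over all genes. Of the 36 members, 23 had a positive value, against 48.3% of all genes. The median of the members was 0.12 without WT-RA replicate 3 and -0.01 without WT-O2 replicate 1. Standard errors ran from 0.07 to 0.30 with a median of 0.14. The 95% interval lay within a 1.5-fold change for 31 members and within a 2-fold change for all 36, but within the threshold of 0.32 for only 7, so changes near the calling threshold could not be told from none for most members.

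By role, the 6 subunits of the MCM helicase, the ring that unwinds DNA at replication forks, all had positive log2 fold changes in WT-O2 vs WT-RA, from 0.06 to 0.32 with a median of 0.18, and none was called. Mcm2 was measured at 5.71, 5.78, 7.60 and 5.67 CPM in WT-RA and at 7.62, 7.99, 7.19 and 8.13 CPM in WT-O2. Only WT-RA replicate 3 reached the range of the WT-O2 libraries. The difference was 0.32 ± 0.11 (SE, edgeR q = 0.247). Without WT-RA replicate 3, Mcm2 was called as higher in WT-O2 (log2 fold change 0.44, edgeR q = 0.0959), the only member called in this comparison when any library was left out.

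Among the enzymes of DNA synthesis, Pcna, the sliding clamp of the polymerases, had 29.1, 28.5, 33.4 and 30.4 CPM in WT-RA and 27.0, 25.5, 28.9 and 27.9 CPM in WT-O2. This is -0.15 on the log2 scale (interval -0.31 to 0.00, edgeR q = 0.410). The ranges overlapped by the 28.5 CPM of WT-RA replicate 2 and the 28.9 CPM of WT-O2 replicate 3. Rrm1 and Rrm2, the subunits of ribonucleotide reductase, had log2 fold changes of 0.18 and -0.10, and Tyms, thymidylate synthase, of -0.10. Values of these genes therefore lay on both sides of 0.

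E2f1 and Ccne2, which act at the entry into S phase, had negative log2 fold changes in WT-O2 vs WT-RA. E2f1, a transcription factor of the E2F family, was at 10.5, 11.2, 16.7 and 10.9 CPM in WT-RA and at 9.34, 7.96, 9.56 and 10.8 CPM in WT-O2. The difference was -0.39 ± 0.15 (SE, edgeR q = 0.302), and WT-O2 replicate 4 lay within the WT-RA range. Ccne2, cyclin E2, was at 9.53, 9.16, 9.15 and 9.94 CPM in WT-RA and at 8.32, 7.85, 9.10 and 8.48 CPM in WT-O2. These ranges did not overlap, by a margin between 9.10 and 9.15 CPM, and the log2 fold change was -0.16 (edgeR q = 0.430). It was the only one of the 36 members without overlap in this comparison, where 5.99% of all genes tested had groups that did not overlap.

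The mitotic genes had lower counts and wider intervals. Cdk1, the kinase that starts mitosis, was at 1.64, 1.83, 2.83 and 2.58 CPM in WT-RA and at 2.97, 2.40, 2.34 and 2.84 CPM in WT-O2, with a log2 fold change of 0.25 (interval -0.12 to 0.62). Its partner cyclin Ccnb1 gave 0.07 (interval -0.29 to 0.43), and Cdc20, which activates the anaphase-promoting complex, 0.09 (interval -0.31 to 0.49). Bub1b, which encodes the spindle checkpoint kinase BubR1, had the value farthest from 0 of all members. Its WT-RA libraries had 3.13, 2.43, 4.03 and 1.54 CPM and its WT-O2 libraries 3.92, 3.76, 3.58 and 4.80 CPM, which is 0.53 ± 0.22 (SE, edgeR q = 0.338). WT-RA replicate 3 again lay inside the WT-O2 range, and WT-RA replicate 4 was the lowest of all 14 libraries. The 5 mitotic kinases and passenger proteins (Aurka, Aurkb, Plk1, Birc5, Cdca8) lay between -0.10 and 0.12, and the 8 kinetochore, motor and spindle genes (Cenpe, Cenpf, Kif11, Kif20a, Kif23, Tpx2, Nusap1, Prc1) between -0.11 and 0.23. Ccnb2 gave -0.03 but is uncertain, since its pseudogene Ccnb2-ps drew 46.0 to 101 estimated counts per library and the authors' counting may have split reads between them.

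In KO mice, no member was called in KO-O2 vs KO-RA and none had an unadjusted p under 0.05, where 0.0120% and 4.86% of all genes did. DESeq2 on all libraries gave 0 for both counts. The median over the members was -0.01, with 17 positive and 19 negative values. Over all genes the median was -0.00202, with 49.4% positive. The 3 smallest p-values belonged to Plk1, a mitotic kinase, with a log2 fold change of -0.34 (interval -0.83 to 0.14), to Tpx2, a spindle assembly factor, with -0.21, and to Nusap1, a spindle protein, with -0.19. All had an edgeR q of 0.997. Plk1 was at 2.60, 2.87 and 3.13 CPM in KO-RA and at 2.26, 2.46 and 2.06 CPM in KO-O2, without overlap. Groups did not overlap for 2 of the 36 members in this comparison, against 11.8% of all genes. The 6 helicase subunits lay between -0.06 and 0.12, with 3 positive and 3 negative. Cdk1, Ccnb1, Cdc20, Mcm2, Pcna and E2f1 had log2 fold changes of 0.04, -0.09, -0.08, 0.07, 0.03 and 0.07. Their 95% intervals lay within 2-fold, as for all 36 members.

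**Figure D2:**
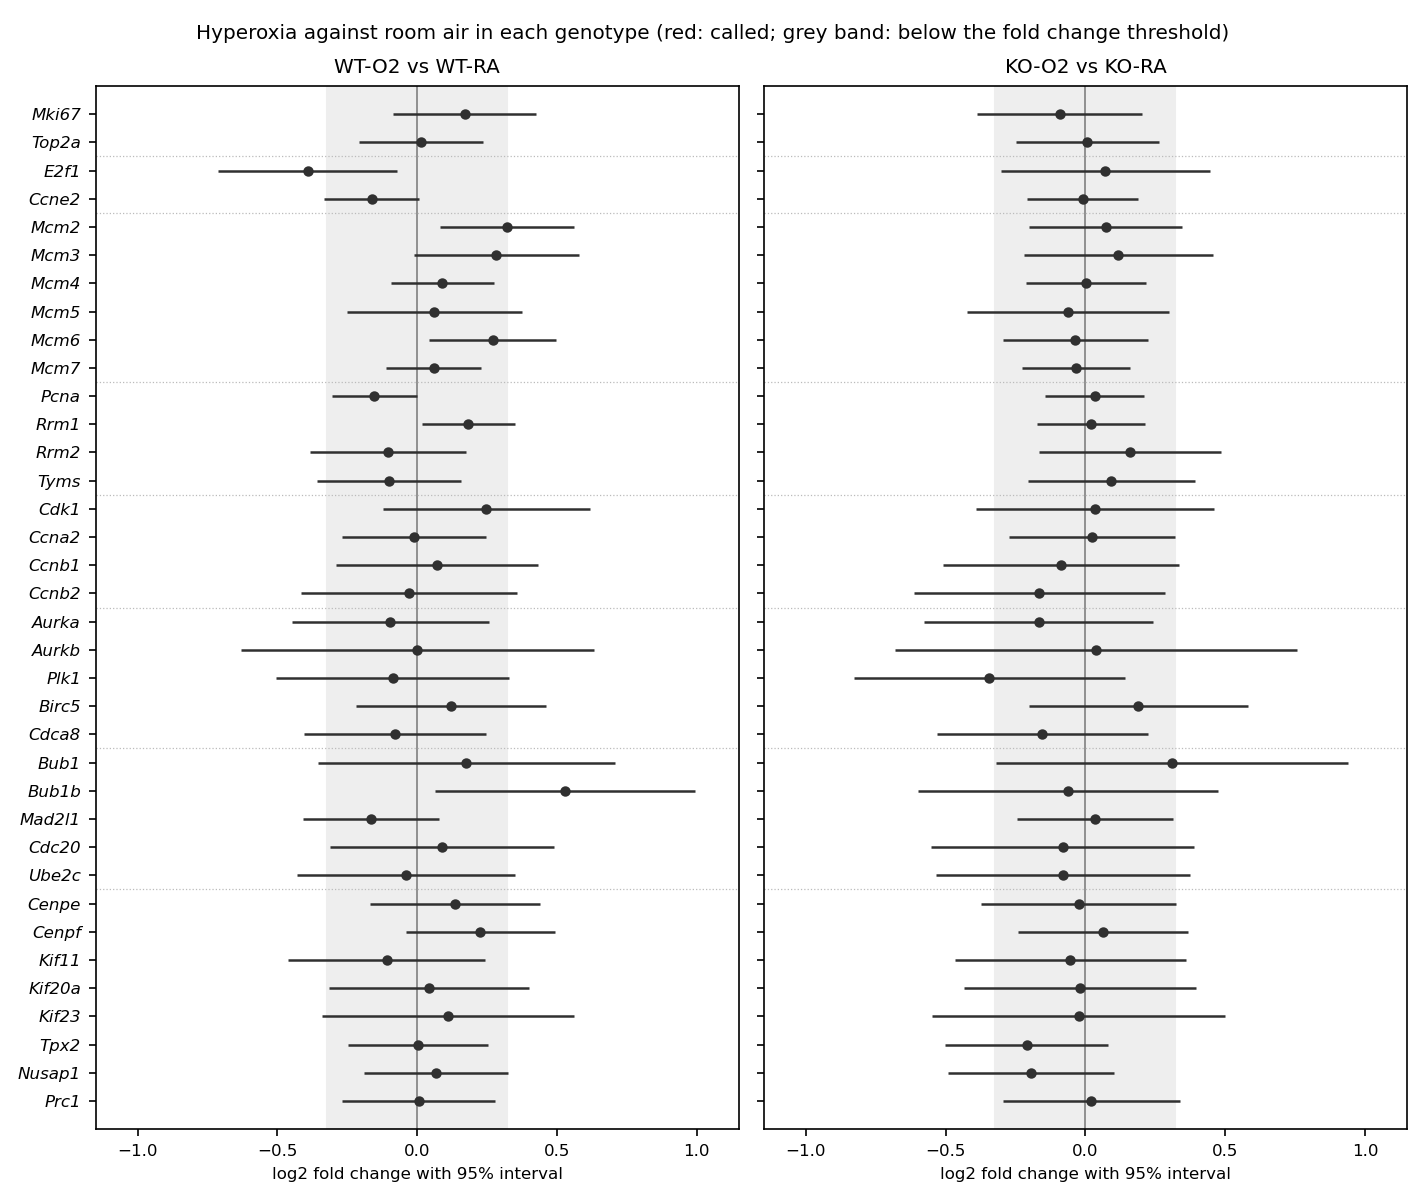
Points are log2 fold changes of hyperoxia against room air for the 36 members, with 95% intervals as lines, in WT mice (left, 4 against 4) and KO mice (right, 3 against 3), ordered by role with dotted lines between roles. No member is called in either genotype, all 6 Mcm genes lie right of 0 in WT mice, and Bub1b has the largest value in WT mice (0.53).

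The design also asks whether the response to O2 differed between genotypes. The interaction, KO-O2 vs KO-RA minus WT-O2 vs WT-RA, called 0 of 36 members and 0% of all genes by edgeR, and 0 members had an unadjusted p under 0.05 against 4.05% of all genes. DESeq2 gave the same 0 for all 3 counts. The members closest to the threshold were E2f1 (0.46 ± 0.23, SE), Mcm6 (-0.31 ± 0.16, SE) and Bub1b (-0.59 ± 0.33, SE). The difference for Mki67 was -0.26 (interval -0.65 to 0.13), for Top2a -0.01 (interval -0.35 to 0.33) and for Pcna 0.19 (interval -0.05 to 0.42). Intervals of the interaction were the widest of all, and lay within 1.5-fold for 11 of the 36 members and within 2-fold for 35. A response that differed between genotypes by less than these intervals was not detectable with 3 or 4 mice per group. With the genotypes averaged, O2 vs RA again called 0 members against 0.337% of all genes, and so did DESeq2. Only Mcm2 had an unadjusted p under 0.05 (log2 fold change 0.20, edgeR q = 0.382), against 11.8% of all genes, followed by Mcm3 (0.20) and Rrm1 (0.10). Mki67 gave 0.04 (interval -0.16 to 0.23) and Top2a 0.01 (interval -0.16 to 0.18) on all 14 libraries.

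The comparison of genotypes in room air called 2 of the 36 members, 1 in each direction, against 10.4% of all genes, and 5 had an unadjusted p under 0.05 against 23.5% of all genes. Both counts are lower shares than over all genes. Mcm6, the helicase subunit, was higher in KO-RA. Its WT-RA libraries had 10.3, 11, 13.4 and 9.83 CPM and its KO-RA libraries 16.1, 16.2 and 15.0 CPM. Every KO-RA library lay above every WT-RA library, with means of 15.8 ± 0.632 CPM (SD, n = 3) and 11.1 ± 1.57 CPM (SD, n = 4). The log2 fold change was 0.50 ± 0.11 (SE), a 1.42-fold change, with an edgeR q of 0.0112. E2f1 was lower in KO-RA, with 8.13, 8.15 and 9.75 CPM against 10.5 to 16.7 CPM in WT-RA and no overlap. Its log2 fold change was -0.51 ± 0.16 (SE, edgeR q = 0.0647). Groups did not overlap for 5 of the 36 members in this comparison (Mcm6, Mcm7, Cenpf, E2f1 and Ccne2), against 19.6% of all genes.

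The call of E2f1 rested on few libraries. Without WT-RA replicate 3, which had the highest E2f1 level of all, the value was -0.32 and the call was lost (edgeR q = 0.135). It was also lost without KO-RA replicate 1 (-0.46, q = 0.198) and without KO-RA replicate 2 (-0.46, q = 0.186). Mcm6 stayed called whichever library was left out. Without WT-RA replicate 3, Mcm2 joined it as higher in KO-RA (0.42, edgeR q = 0.0201), where all libraries together gave 0.30 (q = 0.139).

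Ccne2 passed both p and q but not the fold change threshold. It was at 7.76, 7.42 and 8.15 CPM in KO-RA, below all 4 WT-RA libraries, with a log2 fold change of -0.28 (edgeR q = 0.0535). The other helicase subunits gave 0.30 for Mcm2, 0.27 for Mcm3, 0.09 for Mcm4, 0.06 for Mcm5 and 0.21 for Mcm7, all positive and none called. Mki67 (0.16), Top2a (0.11), Cdk1 (0.20), Ccnb1 (-0.02), Cdc20 (-0.09) and Pcna (-0.03) had edgeR q values of 0.530 or more. Over the 36 members the median was 0.03, with 22 positive values, against -0.01 over all genes, with 48.5% positive. WT-RA served as the reference here and in the hyperoxia comparison of WT mice, so the values of E2f1, Ccne2 and the helicase in these comparisons share their control libraries.

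In hyperoxia, KO-O2 vs WT-O2 called 0 members against 6.86% of all genes, and 0 had an unadjusted p under 0.05 against 18.7%. DESeq2 on all libraries likewise gave 0 for both counts. The groups overlapped for all 36 members, where 19.0% of all genes had groups that did not. Mcm6 was at 15.3, 12.6, 12.6 and 13.1 CPM in WT-O2 and at 17.3, 13.7 and 15.2 CPM in KO-O2, which overlapped (log2 fold change 0.20, interval -0.04 to 0.44, edgeR q = 0.387). E2f1, at 10.7, 8.62 and 8.06 CPM in KO-O2, lay within the WT-O2 range and gave -0.05 (interval -0.40 to 0.30). Pcna (0.15, edgeR q = 0.318) and Tpx2 (-0.20, q = 0.447) were, with Mcm6, the members of smallest p. The values for Mki67, Top2a, Cdk1, Ccnb1, Cdc20 and Mcm2 were -0.11, 0.11, -0.01, -0.18, -0.26 and 0.05. The median over the members was -0.04, with 14 positive values, and -0.01 over all genes, with 47.9% positive.

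**Figure D3:**
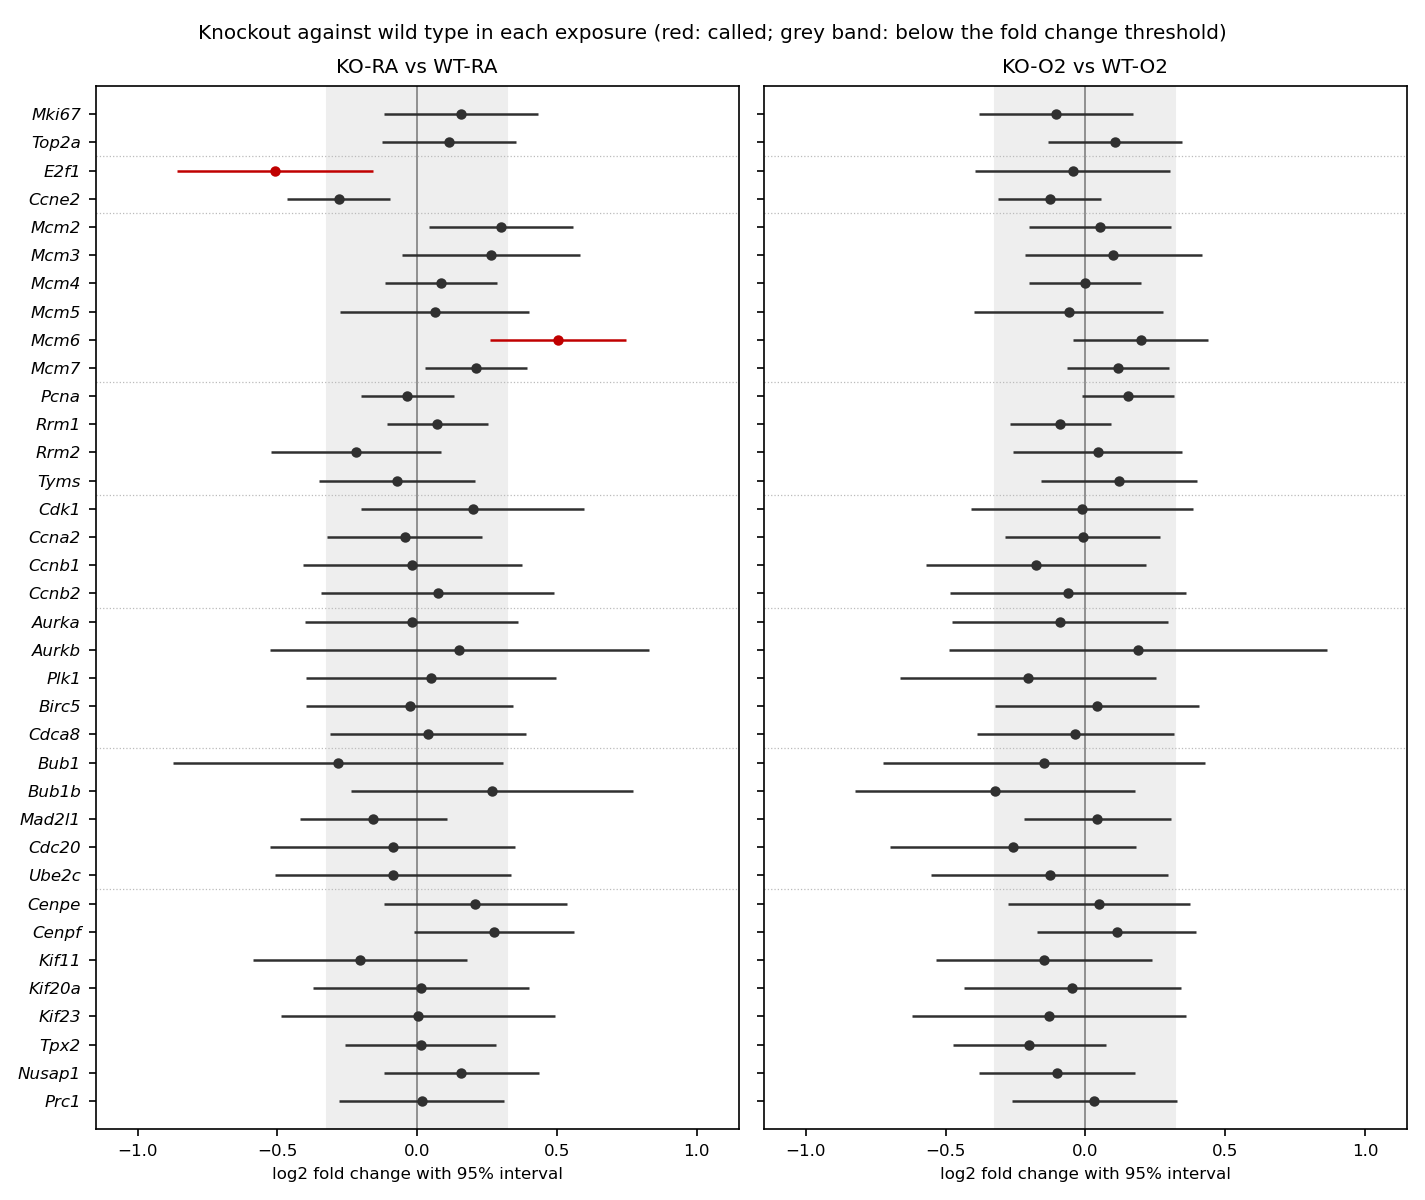
Points are log2 fold changes of KO against WT for the 36 members, with 95% intervals as lines, in room air (left, 3 against 4 mice) and in hyperoxia (right, 3 against 4 mice). The 2 called members are in red, Mcm6 at 0.50 and E2f1 at -0.51, both in room air, and no member is called in hyperoxia.

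With the exposures averaged, KO vs WT called 1 member against 12% of all genes, and 4 members had an unadjusted p under 0.05 against 30.1%. Mcm6 was higher in KO, with a log2 fold change of 0.35 ± 0.08 (SE, edgeR q = 0.00668). The size lay close to the fold change threshold of 0.32. It fell under the threshold, to 0.31 (q = 0.0224), without KO-O2 replicate 1, and to 0.32 (q = 0.0212) with WT-O2 replicate 4 counted as room air. Ccne2 (-0.20, edgeR q = 0.0302) and Mcm7 (0.16, q = 0.0755) again passed p and q below the fold change threshold. E2f1 gave -0.28 (q = 0.117) and was called only without KO-O2 replicate 1 (-0.34, q = 0.0765). Mki67 gave 0.02 (interval -0.17 to 0.22), Top2a 0.11, Pcna 0.06, Cdk1 0.09, Ccnb1 -0.10, Cdc20 -0.17 and Mcm2 0.18. For 34 of the 36 members the interval lay within 1.5-fold.

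Markers of tissue composition differed between genotypes beside these values. In KO-RA vs WT-RA, 34 of 75 markers were called, against 10.4% of all genes. In KO-O2 vs WT-O2 there were 24, against 6.86% of all genes. All 6 markers of hippocampal neurons (Prox1, Zbtb20, Neurod6, Wfs1, Fibcd1, Dsp) were detected in the libraries and were called as higher in KO-RA, with summed levels of 547 to 806 CPM in WT-RA, 734 to 909 in WT-O2, 1155 to 1457 in KO-RA and 1197 to 1420 in KO-O2. All 6 striatal markers were called as lower in KO-RA. Their sums were 349 to 471 CPM in WT-RA, 196 to 498 in WT-O2, 48.3 to 138 in KO-RA and 58.4 to 72.3 in KO-O2. Of the 6 thalamic markers, 4 were also called as lower. Of the cell types that can divide, neural stem and progenitor cells had 3 of 8 markers called as higher in KO-RA. Over the 8 markers, 4 log2 fold changes were positive and 4 negative. Their sums were 138 to 151 CPM in WT-RA, 148 to 177 in WT-O2, 202 to 231 in KO-RA and 210 to 224 in KO-O2. For oligodendrocyte precursors 3 of 6 were called as lower, with 5 negative values and 1 positive. Their sums were 688 to 1044, 675 to 879, 611 to 692 and 600 to 708 CPM in the same order. The 4 markers of myelinating oligodendrocytes were all lower in KO-RA (sums of 6407 to 16058 CPM in WT-RA and 2727 to 4365 in KO-RA). Their sums overlapped in hyperoxia, with 4032 to 10618 CPM in WT-O2 and 2713 to 4775 in KO-O2. Further lists gave 3 of 6 markers called as higher for immature neurons, 2 of 5 called as higher for astrocytes and 3 of 6 called as lower for ventral neuroblasts. For microglia, endothelium, erythroid cells and choroid plexus 0 were called. Choroid plexus sums ran from 28.3 to 3245 CPM within KO-RA and from 97.1 to 3381 CPM within KO-O2. With SEs of 0.73 to 1.00 in KO-RA vs WT-RA, a change in its markers could not be told from none. In KO-O2 vs WT-O2, calls in the same directions covered 3 of 6 hippocampal neuron, 6 of 6 striatal and 4 of 6 thalamic markers. They also covered 4 of 4 markers of myelinating oligodendrocytes and 3 of 8 of neural stem and progenitor cells. Calls were 0 of 6 for oligodendrocyte precursors, 1 of 6 for immature neurons, 1 of 5 for astrocytes and 2 of 6 for ventral neuroblasts. The other lists again had 0. No marker was at 0 in every library. Their part in the values of Mcm6 and E2f1 was not tested. In neither hyperoxia comparison was any of the 75 markers called by edgeR, against 0.643% of all genes in WT and 0.0120% in KO mice. At an unadjusted p under 0.05 there were 16 in WT and 1 in KO mice, against 12.2% and 4.86% of all genes.

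Of the other genes of the cell cycle, 104 were tested from a list of 105. By edgeR on all libraries none was called for O2. In WT-O2 vs WT-RA, 10 of the 104 had an unadjusted p under 0.05, against 12.2% of all genes, and DESeq2 on all libraries called 0, with 9. In KO-O2 vs KO-RA there were 2 (4.86% of all genes), and DESeq2 called 0, with 2. The interaction had 1 (4.05% of all genes), and DESeq2 called 0, with 0. In O2 vs RA averaged over genotypes there were 11 (11.8% of all genes), and DESeq2 had 10 and called 1 gene, Cdkn1a. Cdkn1a, which encodes the cell cycle inhibitor p21 and was singled out after its values were seen, was at 25.5, 18.6, 19.3 and 16.9 CPM in WT-RA and at 28.4, 27.1, 21.3 and 30.4 CPM in WT-O2. The log2 fold change was 0.41 (interval 0.12 to 0.71, edgeR q = 0.232) in WT mice, 0.29 (interval -0.05 to 0.63) in KO mice and 0.35 (q = 0.224) over both. With DESeq2 on all libraries the value over both genotypes was also 0.35 and was called (DESeq2 q = 0.0796). By edgeR it was called in WT mice without WT-RA replicate 1, the highest of its group (0.55, edgeR q = 0.0639), and over both genotypes without that library (0.42, q = 0.0696). Anln, another of the 104, was called in both of these comparisons without WT-RA replicate 3.

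Between genotypes, edgeR called 4 of the 104 in room air, against 10.4% of all genes (Ccnd2, Gins1, Gins2 and Cdc25b, all higher in KO-RA). In hyperoxia it called 3, against 6.86% of all genes (Gins2 and Cdc25b higher and Racgap1 lower in KO-O2). With exposures averaged there were 7, against 12% of all genes, adding Chek1 as higher and Stmn1 as lower. DESeq2 on all libraries called 4, 4 and 5 in the same order, not all of them the same genes. In room air it called Stmn1 in place of Gins1, and in hyperoxia it added Rb1. With exposures averaged it left out Gins1 and Chek1. Ccnd2, cyclin D2, which drives G1 progression and is needed for dividing hippocampal progenitors, was at 99.9, 92.8, 112 and 95.7 CPM in WT-RA and at 154, 129 and 134 CPM in KO-RA, without overlap (log2 fold change 0.47, edgeR q = 0.00363, and 0.37 with q = 0.000714 over both exposures). Cdc25b, a phosphatase that activates Cdk1, rose by 0.41 (q = 0.0318) in KO-RA and by 0.48 (q = 0.0195) in KO-O2. Its calls were lost without KO-RA replicate 2 (q = 0.116) and without KO-O2 replicate 2 (q = 0.103). Gins2, a subunit of the GINS complex that works with the MCM helicase, rose by 0.42 (q = 0.0834) in KO-RA and by 0.71 (q = 0.00876) in KO-O2. The room air value fell short of the call in 8 of the 14 fits that left out a library, with DESeq2 (q = 0.108) or edgeR (q = 0.179) on the groups compared, and with library size only (q = 0.103). Gins1 (0.75, q = 0.0868 in KO-RA) had under 2 CPM in every library and lost its call in 7 of the 14. With all libraries kept, that call was lost with DESeq2 on all libraries (q = 0.104) or on the groups compared (q = 0.201), with edgeR on the groups compared (q = 0.138), without a filter on low counts (q = 0.131) and with WT-O2 replicate 4 as room air (q = 0.103). Racgap1, which acts in cytokinesis, gave -0.40 in KO-O2 (q = 0.0788) and lost its call in 7 of the 14. It was also lost with WT-O2 replicate 4 as room air (-0.36, q = 0.205) and without a filter on low counts (q = 0.116). Chek1, a checkpoint kinase, gave 0.39 over both exposures (q = 0.0608) and Stmn1, a microtubule destabilizer that neurons also express, -0.44 (q = 0.0201). Over both exposures, Gins1, Chek1 and Racgap1 lost their calls in 9, 3 and 2 of the 14 such fits, and Gins1 and Chek1 also with DESeq2 on all libraries (q = 0.126 and 0.133) and without a filter on low counts (q = 0.145 and 0.136). Gins1 lost it with library size only (q = 0.109) and with WT-O2 replicate 4 as room air (q = 0.147) as well. Across the 104 the median was -0.000921 in room air and 0.01 in hyperoxia.

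Libraries within WT-RA differed by more than the group means did. As deviations of log2 CPM from each gene's mean over the 14 libraries, the members averaged 0.20 in WT-RA replicate 3 and -0.16 to -0.08 in the other WT-RA libraries. The group means were -0.03 ± 0.16 (SD, n = 4) in WT-RA, 0.03 ± 0.09 (SD, n = 4) in WT-O2, 0.01 ± 0.05 (SD, n = 3) in KO-RA and -0.01 ± 0.11 (SD, n = 3) in KO-O2. WT-RA replicate 3 was the highest of its group for 27 of the 36 members and for 29.3% of all genes. KO-O2 replicate 1 was the highest of its group for 25 of the 36 and for 36.0% of all genes. WT-RA replicate 2 was the highest for none of the members and for 15.7% of all genes.

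**Figure D4:**
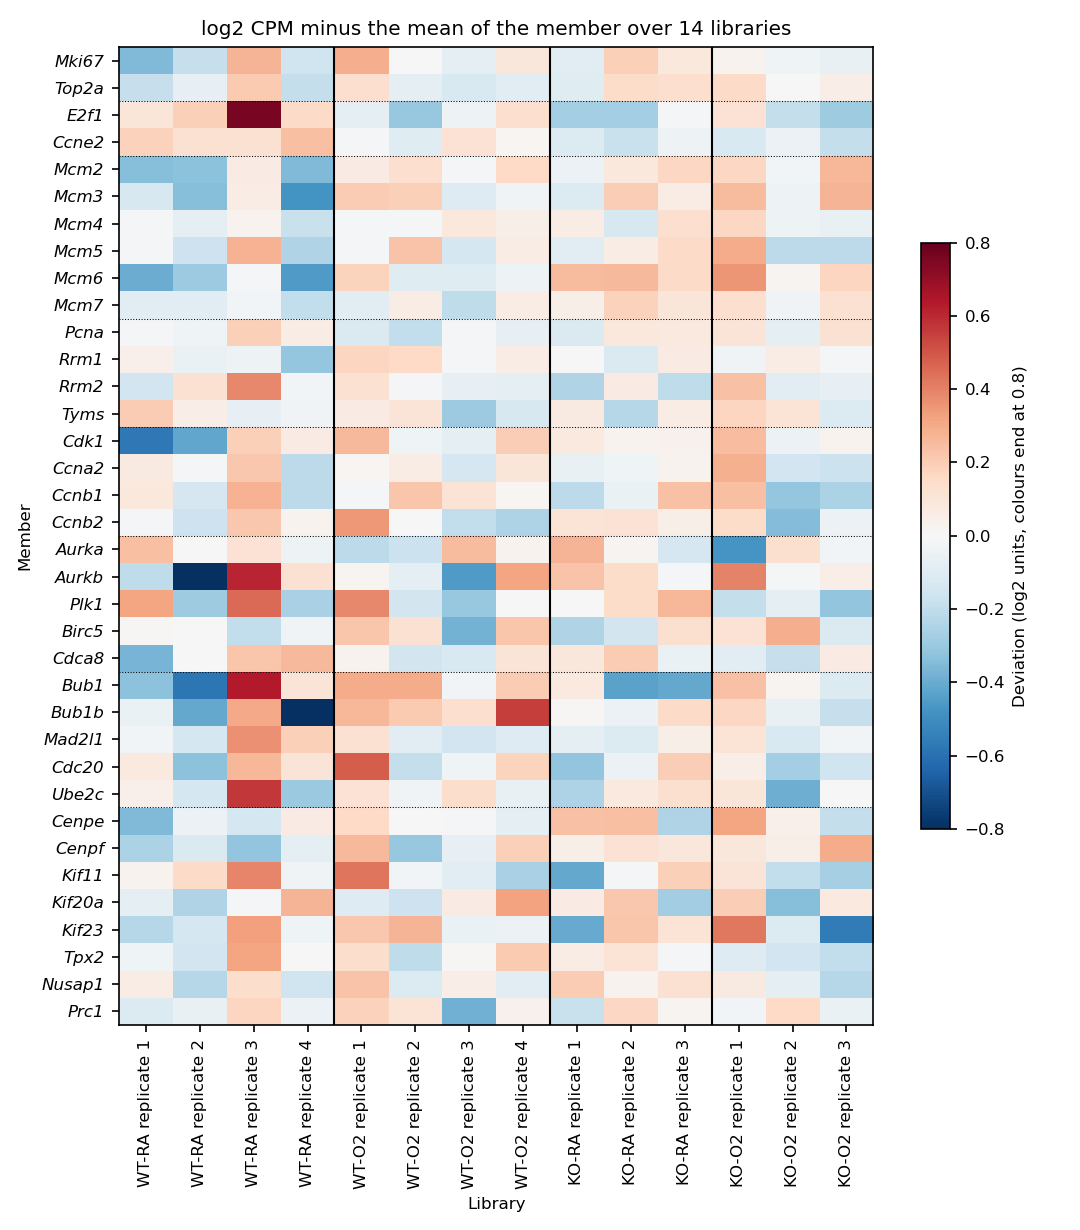
Colours give the log2 CPM of each member (rows, ordered by role) in each library (columns) minus the mean of that member over the 14 libraries, with black lines between groups. WT-RA replicate 3 is above the mean for most members, with an average of 0.20, and the 3 other WT-RA libraries average between -0.16 and -0.08.

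Levels of the members were compared across mice of a group. Over the 630 pairs of members, the correlation of their deviations from the group means had a median r of 0.33 over 14 libraries, and 489 pairs (77.6%) were positive. Over all pairs of the 16637 genes tested, the median r was -0.00108 and 49.9% were positive. Without WT-RA replicate 3 the median over the members was 0.20, with 451 positive pairs (71.6%), and over all genes -0.000743. The median was 0.36 for 276 pairs within the mitotic genes, 0.31 for 66 pairs within the replication genes and 0.31 for 288 pairs across them. Libraries share depth and dissection across all genes, so these values are descriptions. For Mki67, 32 of 35 correlations with other members were positive, with a median of 0.56.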

How the data were processed

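Hippocampal RNA of 14 mice was sequenced after polyA selection as paired-end reads of 150 bp. The authors deposited estimated counts per gene, made with Kallisto on GRCm39 and summed with tximport. Versions and count scaling are not given in the sources used here. Libraries summed to 27272270 to 28257496 counts, and members had mean counts of 37.1 to 816, and counting error, which is relatively larger at the lower counts, was not separated from variation between mice. Counts were rounded, filtered by filterByExpr, scaled by TMM and modelled in edgeR (4.0.16, R 4.3.3) with a coefficient for each of the 4 groups and no other term. The 7 comparisons used the quasi-likelihood F-test, two-sided, with Benjamini-Hochberg adjustment over 16637 genes, at the study's thresholds (log2 fold change 0.32, p 0.05, q 0.1). CPM are TMM-scaled, and log2 CPM used a prior count of 2.

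Members and lists were chosen with earlier results of these data known. Named genes are 8 members spread over the roles, all called members, the 3 of smallest p per comparison, called genes of the cell cycle list with its 3 smallest p, and Gsdmd. Cdkn1a was added after its values were seen. The fit was run on counts simulated from the gene means and spreads estimated from these data. Only the recovery of set fold changes was required, so a misfit of the model to these data could not show. The labels name mice and no shared culture or litter. Alternatives were DESeq2 1.42.0 on all libraries or the groups compared, its size factors or library size, 2 other filters, edgeR without the groups not compared, stricter calls (1.5-fold or q 0.05), WT-O2 replicate 4 (mouse GSD408) as room air, and each library left out. Staining was not analysed here. Promoters were searched with Python 3.11.15.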

Additional observations from a re-analysis of the deposited data

Results flagged for a closer look

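In 2 of 72 tests of members in the groups of 4 mice (WT-RA and WT-O2), 1 library stood apart from the others by Dixon's test, whose critical value flags about 1 group in 20 by chance. E2f1 was at 16.7 CPM in WT-RA replicate 3, where the other WT-RA libraries had 10.5 to 11.2 CPM. Mcm2 was at 7.60 CPM in the same library, where the others had 5.67 to 5.78 CPM. The groups of 3 KO mice were not tested.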

How the results depend on the processing

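The members called moved with 1 choice at a time as follows. In WT-O2 vs WT-RA the count of 0 ran from 0 to 1 with a library left out (Mcm2 without WT-RA replicate 3). In KO-RA vs WT-RA the count of 2 became 1 with edgeR on the groups compared and at a q of 0.05, 0 at a fold change of 1.5, and 1 to 2 with a library left out, with Mcm6 the member called wherever the count was 1. In KO vs WT averaged over exposures the count of 1 became 0 at a fold change of 1.5 and with mouse GSD408 as room air. The other settings, DESeq2 included, gave the same counts. Fits on the groups compared were not run for the interaction and the averages, which use all groups. No paired analysis was possible because the labels give no replicate numbers that the groups share. The cause of these changes was not tested.

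Signs were followed for 103 log2 fold changes of the named genes and not for every member in every comparison. Among these, the values that changed sign were all uncalled and near 0. With mouse GSD408 as room air these were Cdk1 (0.0243) and E2f1 (0.0266) in KO-O2 vs WT-O2, Ccnb1 (0.00449) and Cdc20 (-0.0187) in O2 vs RA averaged over genotypes, and Gins2 (0.0146) in WT-O2 vs WT-RA. With library size only they were Top2a in KO-O2 vs KO-RA (-0.00733) and Cdc20 in O2 vs RA averaged over genotypes (-0.00479). With a library left out, 24 values spanned 0. For WT-O2 vs WT-RA these were Top2a (-0.0465 to 0.114), Ccnb1 (-2.24e-05 to 0.174), Cdc20 (-0.054 to 0.186) and Gins2 (-0.163 to 0.0992). For KO-O2 vs KO-RA these were Top2a (-0.0698 to 0.0472), Cdk1 (-0.058 to 0.0963), Ccnb1 (-0.292 to 0.0488), Cdc20 (-0.206 to 0.0596), Pcna (-0.0309 to 0.0922), E2f1 (-0.0576 to 0.165), Mcm6 (-0.127 to 0.0415) and Ccnd2 (-0.0414 to 0.0884). For KO-RA vs WT-RA these were Ccnb1 (-0.14 to 0.0906), Cdc20 (-0.215 to 0.0365) and Pcna (-0.0691 to 0.0292). For KO-O2 vs WT-O2 these were Cdk1 (-0.106 to 0.0478), Mcm2 (-0.0145 to 0.127) and E2f1 (-0.174 to 0.0345). For the interaction these were Top2a (-0.106 to 0.0527) and Cdc25b (-0.0384 to 0.169). For O2 vs RA averaged over genotypes these were Top2a (-0.0279 to 0.0614), Ccnb1 (-0.11 to 0.062) and Cdc20 (-0.0679 to 0.0764). For KO vs WT averaged over exposures it was Mki67 (-0.00813 to 0.104). SEs in WT-O2 vs WT-RA reached 0.30 (Aurkb), and counting error was not separated from variation between mice.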
